A study of Mus musculus with 18 samples.

Results

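H19, Igf2, Igf2as and Nctc1 lie in 1 imprinted neighbourhood of mouse chromosome 7, and their transcripts were measured here in nuclei and cytoplasm of single muscle fibers. Every array probe besides controls whose deposited gene name was H19, Igf2, Igf2as or Nctc1 was taken: 7 probes for H19 and 1 each for the other 3 genes, 10 of 55681 probes in all and 4 of 35527 gene names. Igf2as is the array's older name for the gene that RefSeq now calls Igf2os, matched through its accession. Fibers came from 3 hindlimb muscles of wild-type CD1 female mice aged 3 months, with no allele or agent under test: the fast extensor digitorum longus (EDL), the slower soleus, and the tibialis anterior (TA). Each of the 18 arrays was 1 pool of 5 to 10 fibers, split by detergent lysis and centrifugation into a nuclear pellet and a supernatant taken as cytoplasm, which gave 6 groups of 3 arrays. EDL and soleus pools with the same replicate number came from the same pair of mice, so there the replicate number marks the mice. In TA it does not: by the mouse numbers in the labels, cytoplasm replicates 1 and 2 shared 1 mouse with each other and with EDL and soleus replicate 2, each also held the mouse of the same-numbered nuclear array, nuclear replicate 3 came from a mouse of EDL and soleus replicate 1, and cytoplasm replicate 3 came from a mouse used nowhere else. TA arrays were therefore not independent of each other or of the other muscles.

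At this locus H19, a long noncoding RNA, is made from the maternal chromosome and Igf2, a fetal growth factor, from the paternal one. Both draw on enhancers downstream of H19, and the insulator protein CTCF, bound to the unmethylated maternal control region between them, keeps those enhancers from Igf2. Nctc1 is a noncoding RNA transcribed across a muscle enhancer downstream of H19, and Igf2as runs opposite to Igf2. H19 is abundant in fetal tissues and is still made in skeletal muscle after birth.

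The probes are 60 bases long and read single strands, so their sequences show which stretch of each RNA was measured. All positions are on mm9. In the order 3′ to 5′ of the RNA, the H19 probes are called a to g here. H19 probe a lies at chr7:149761492-149761551, b at chr7:149761693-149761752, c at chr7:149761756-149761815, d at chr7:149761957-149762016, e at chr7:149762113-149762172, f at chr7:149762173-149762232 and g at chr7:149762417-149762476, all on the reverse strand inside the interval chr7:149761435-149764019 that the array's annotation gives for H19. The 7 sequences are shown because the comparison of muscles below depends on which of them is read. The capital T in probe e marks the base that differs from the study's own cloned H19 cDNA (T48C, counted from the 5′ end of the probe).
H19 a: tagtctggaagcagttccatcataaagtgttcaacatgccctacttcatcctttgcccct
H19 b: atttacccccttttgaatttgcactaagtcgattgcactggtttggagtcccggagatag
H19 c: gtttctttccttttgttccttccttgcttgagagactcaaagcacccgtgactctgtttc
H19 d: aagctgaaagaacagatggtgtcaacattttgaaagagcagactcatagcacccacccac
H19 e: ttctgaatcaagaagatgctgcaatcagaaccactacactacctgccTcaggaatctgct
H19 f: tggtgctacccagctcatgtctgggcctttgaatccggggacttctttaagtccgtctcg
H19 g: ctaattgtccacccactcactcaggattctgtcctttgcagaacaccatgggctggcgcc

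Probes b to f matched that cDNA, a fragment of 579 bases amplified from RNA for in situ hybridisation, with at most 1 mismatch, whereas a and g lie outside it. The starts of probes e and d are 156 bases apart in the genome and 68 apart in the cDNA, so 88 genomic bases between them are absent from the cDNA. The other neighbouring starts inside the cDNA keep their genomic spacing, so probes b, c and d fall on 1 side of the gap and e and f on the other.

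The Nctc1 probe lies at chr7:149739640-149739699 on the reverse strand, 21.8 kb beyond the 3′ end of H19. Its capitals mark the forward primer with which the study amplified the retained-intron form of Nctc1 whole, 21 bases in all. The Igf2as probe lies at chr7:149856156-149856215 on the forward strand, 94.7 kb on the other side. The Igf2 probe lies between H19 and Igf2as, at chr7:149839661-149839720 on the reverse strand.
Nctc1: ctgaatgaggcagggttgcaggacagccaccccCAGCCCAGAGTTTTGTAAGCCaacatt
Igf2as: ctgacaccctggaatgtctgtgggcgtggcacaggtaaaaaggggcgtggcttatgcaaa

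All 10 probes were well above background on all 18 arrays, none was saturated, and none shared a run of 30 bases with a probe of another gene name. Over the arrays, 58.6% to 71.2% of spots were well above background. Levels are log2 of the processed signal after quantile scaling. That scaling gives every array the same distribution, so a level is relative to the other RNAs of its fraction and is not an amount per fiber. Nuclear arrays repeated each other more tightly than cytoplasmic ones: the median SD of the 10 probes was 0.09 for EDL, 0.06 for soleus and 0.12 for TA nuclei against 0.55, 0.37 and 0.45 for the matching cytoplasm. The EDL and soleus nuclei shared 1 slide and the EDL and soleus cytoplasm another, so in those muscles fraction and slide cannot be told apart. In TA, 1 slide held all 3 nuclear arrays and cytoplasm replicate 2. In such bulk pools fewer cells of a type and less RNA per cell cannot be told apart.

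Nctc1 was the member most enriched in nuclei. In EDL its level was 10.63, 10.79 and 11.02 in the cytoplasm and 12.53, 12.63 and 12.44 in the nuclei. In soleus it was 10.44, 10.42 and 10.76 in the cytoplasm and 12.26, 12.20 and 12.31 in the nuclei. The nuclear arrays stood above the cytoplasmic ones without overlap in both. In TA the cytoplasmic levels were 11.28, 10.87 and 10.27 and the nuclear levels 11.66, 12.29 and 12.21, again without overlap but with the groups closer together. Nctc1 rose in nuclei by 1.72 ± 0.24 (log2 difference ± SE, n = 3 against 3; 3.29-fold; adjusted p = 5.0e-05) in EDL, by 1.72 ± 0.24 (adjusted p = 7.3e-05) in soleus and by 1.24 ± 0.24 (2.37-fold; adjusted p = 5.4e-04) in TA. Over the 3 muscles the difference was 1.56 ± 0.14 (adjusted p = 1.3e-07). Of all tested probes 10.6% were higher in nuclei in each of the 3 muscles at this threshold, and 14.5% of those with a value on every array were higher without overlap in all 3.

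For scale, the RNAs long known to stay in nuclei differed by more. The paraspeckle RNA Neat1 stood 2.78 ± 0.14 higher in nuclei over the 3 muscles, Kcnq1ot1, the noncoding RNA of the neighbouring imprinted domain, which was not well above background on every cytoplasmic array, 3.27 ± 0.19, and Meg3, an imprinted noncoding RNA of chromosome 12, 2.23 ± 0.17. Within the slide that held both TA fractions, which had 1 cytoplasmic array, the Nctc1 difference was 1.18, and within the scan day, with 2 of them, it was 1.48. With the nuclear arrays of each muscle counted as 1 sample it kept its value but was called only in EDL (adjusted p = 0.044) and over the 3 muscles (adjusted p = 0.0014).

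**Figure D1:**
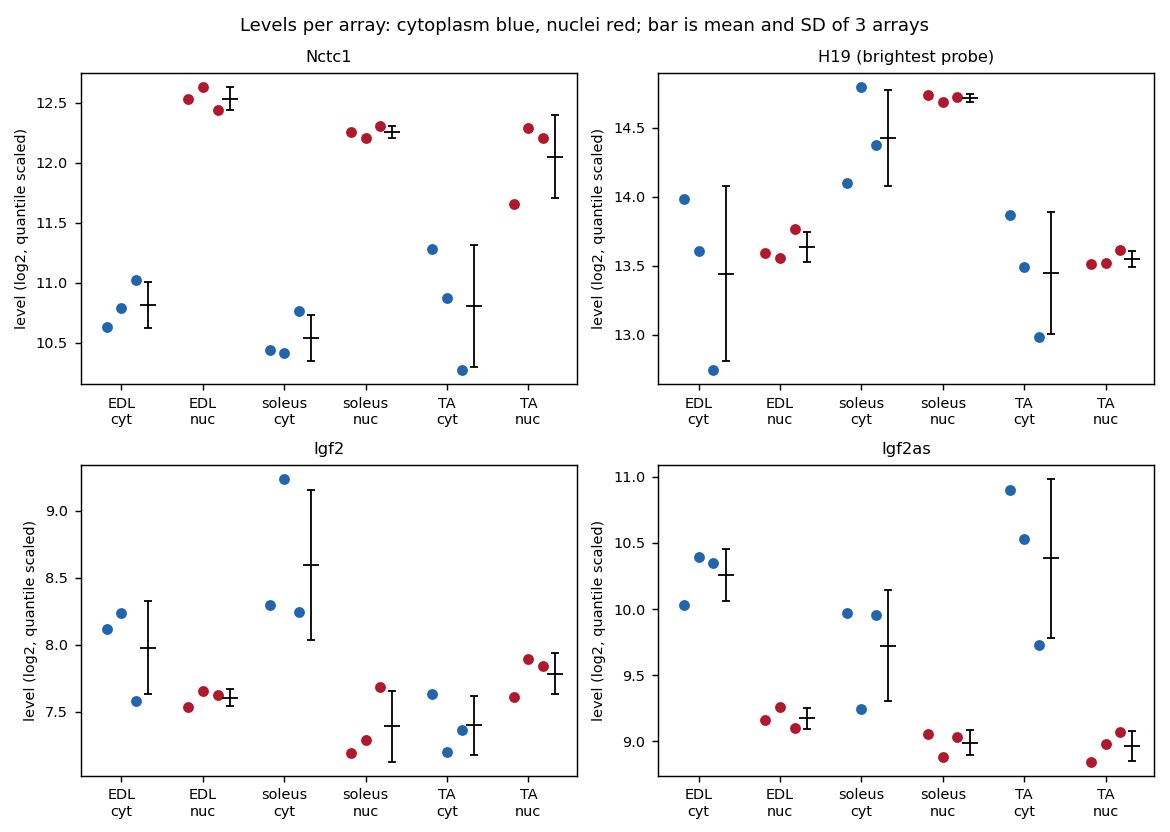
Level per array (log2, quantile scaled, vertical axis) of Nctc1, the brightest H19 probe (f), Igf2 and Igf2as in the 6 groups, with cytoplasm (cyt) in blue, nuclei (nuc) in red, and the mean and SD of 3 arrays in black. Nctc1 is higher and Igf2as lower in the nuclei of every muscle, the H19 points of soleus lie above those of EDL in both fractions, and Igf2 stands highest in soleus cytoplasm.

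Igf2as, the transcript opposite to Igf2, went the other way. Its EDL levels were 10.04, 10.39 and 10.35 in the cytoplasm and 9.16, 9.26 and 9.10 in the nuclei. Its soleus levels were 9.97, 9.24 and 9.96 in the cytoplasm and 9.06, 8.88 and 9.03 in the nuclei. In TA they were 10.90, 10.53 and 9.73 in the cytoplasm against 8.85, 8.98 and 9.08 in the nuclei. Every nuclear array lay below every cytoplasmic array of its muscle, by the smallest margin in soleus. Igf2as fell by 1.08 ± 0.26 (2.12-fold; adjusted p = 0.0036) in EDL, by 0.73 ± 0.26 (1.66-fold; adjusted p = 0.036) in soleus and by 1.42 ± 0.26 (2.67-fold; adjusted p = 4.1e-04) in TA. Of all tested probes 17.6% were lower in nuclei in all 3 muscles at this threshold, and 21.4% of those with every value were lower without overlap in all 3. The soleus call was lost with the replicate number as a block (adjusted p = 0.052) and without any 1 of 5 soleus arrays, and without scaling between arrays the soleus difference turned to 0.50 (adjusted p = 0.10). The EDL call was lost without scaling too (-0.40, adjusted p = 0.21) and with the slide as a random block (-0.81, adjusted p = 0.22), and the value over the 3 muscles was -0.29 without scaling (adjusted p = 0.094). In TA the call held under both, and the difference was -1.56 within the slide that held both fractions.

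Igf2 was the only member for which a difference between muscles in this contrast passed the test. In soleus its levels were 8.30, 9.24 and 8.24 in the cytoplasm and 7.19, 7.29 and 7.69 in the nuclei, without overlap. Of all probes with every value, 28.3% were lower in soleus nuclei without overlap. In EDL they were 8.11, 8.24 and 7.58 against 7.53, 7.65 and 7.63, and in TA 7.63, 7.20 and 7.37 against 7.61, 7.90 and 7.84, with overlap in both. Igf2 fell in soleus nuclei by 1.20 ± 0.26 (2.30-fold; adjusted p = 0.0020). The EDL difference of -0.37 ± 0.26 (95% interval -0.92 to 0.18) and the TA difference of 0.38 ± 0.26 (95% interval -0.17 to 0.93) did not pass the test. Over the 3 muscles Igf2 fell by 0.40 ± 0.15 (adjusted p = 0.027), but without scaling that value was 0.29. The TA difference exceeded the soleus one by 1.59 ± 0.37 (adjusted p = 0.031), where 3.33% of all tested probes were called. Neither the soleus against EDL comparison (-0.83 ± 0.37, adjusted p = 0.68) nor TA against EDL (0.76 ± 0.37, adjusted p = 0.41) was called, nor was the joint test over the 3 muscles (adjusted p = 0.079; 1.57% of all tested probes were called). Without scaling the soleus difference was -0.03 (adjusted p = 0.94) and the TA against soleus value 0.68 (adjusted p = 0.14), so neither was called. With the slide as a random block both calls were lost as well (adjusted p = 0.19 and 0.26). With the replicate number as a block the TA against soleus value had an adjusted p of 0.062, and leaving out soleus nuclei replicate 1 or 2, TA cytoplasm replicate 2 or any TA nuclear array also ended the call.

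Of 8 measured macrophage markers 2 fell in soleus nuclei, as Igf2 did, and none rose. That is near the share of all tested probes, of which 21.7% fell in soleus nuclei. C1qb, a complement subunit, was lower there by 0.94 (adjusted p = 6.27e-04). The summed signal of the 8 markers was 3536 to 5559 in soleus cytoplasm and 3138 to 3285 in soleus nuclei. In TA 4 of the 8 markers fell in nuclei and in EDL 3, where Igf2 was not called, beside 33.5% and 26.5% of all tested probes. Their part in the Igf2 values was not tested.

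Relative to the other RNAs of each fraction, H19 stood at like levels in both by most of its probes. This does not give its split between nucleus and cytoplasm in amount. For probe f, the brightest, the levels were 13.98, 13.60 and 12.74 in EDL cytoplasm and 13.59, 13.55 and 13.76 in EDL nuclei. In soleus they were 14.10, 14.79 and 14.38 against 14.74, 14.68 and 14.72, and in TA 13.87, 13.49 and 12.98 against 13.51, 13.52 and 13.61. The fractions overlapped in each muscle. The difference over the 3 muscles was 0.20 ± 0.16 with a 95% interval of -0.15 to 0.54, and for probes d and e it was 0.05 ± 0.17 and 0.10 ± 0.18. With 75th percentile scaling these 3 values were -0.30, -0.19 and -0.15, and without scaling d and e rose by 0.53 and 0.56 (adjusted p = 0.014 and 0.013). Under quantile scaling these intervals leave out a change as large as that of Nctc1.

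The H19 probes at the ends of the measured stretch were the ones called. Probe g, the most 5′ and by far the dimmest, was at 7.47, 7.81 and 7.00 in EDL cytoplasm and 6.80, 6.63 and 6.89 in EDL nuclei, and at 7.98, 7.70 and 7.30 in TA cytoplasm and 6.90, 6.99 and 7.14 in TA nuclei, without overlap in either muscle. Of all probes with every value, 35.1% were lower without overlap in EDL nuclei and 37.9% in TA nuclei. It fell in nuclei by 0.66 ± 0.24 (adjusted p = 0.033) in EDL, by 0.65 ± 0.24 (adjusted p = 0.031) in TA and by 0.55 ± 0.14 (adjusted p = 0.0021) over the 3 muscles. The calls in EDL and TA were lost with the replicate number as a block (adjusted p = 0.062 and 0.058), while that over the 3 muscles held. Without scaling none of them was called, with differences of -0.10 in EDL and -0.41 in TA, and the value over the 3 muscles turned to 0.11. With the slide as a random block the EDL call and that over the 3 muscles were lost (adjusted p = 0.47 and 0.23). In soleus it differed by -0.35 ± 0.24 (adjusted p = 0.25). Probe a, the most 3′, rose by 0.37 ± 0.14 over the 3 muscles (adjusted p = 0.028) and in no single muscle, and with 75th percentile scaling that value was 0.03 (adjusted p = 0.84). Without soleus cytoplasm replicate 2 it was 0.68 higher in soleus nuclei and without TA cytoplasm replicate 2 it was 0.65 higher in TA nuclei, both then called.

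Probes b and c, which start 63 bases apart, rose and fell together from array to array. For b the EDL levels were 12.05, 12.35 and 10.57 in the cytoplasm and 10.97, 10.65 and 10.96 in the nuclei, so that cytoplasm replicate 3 alone lay below the nuclei. Its difference was -0.80 ± 0.40 (adjusted p = 0.11) in EDL and 0.51 ± 0.40 (adjusted p = 0.29) in TA. Without EDL cytoplasm replicate 3 the EDL difference became -1.34 for b and -1.26 for c, both called. The difference between TA and EDL, 1.31 ± 0.56 for b, was not called (adjusted p = 0.35; 0.339% of all tested probes were called).

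Counted over the 10 probes, 3 were called in EDL (1 higher and 2 lower in nuclei), 3 in soleus (1 higher, 2 lower) and 3 in TA (1 higher, 2 lower), and 5 over the 3 muscles (2 higher, 3 lower). Of all tested probes 46.6% were called for EDL, 40.3% for soleus, 52.7% for TA and 69.8% over the 3 muscles. Of the 10 probes 7 read 1 RNA, H19, so these counts are not shares of independent members. By gene, Nctc1 and Igf2as were called in each muscle, Igf2 in soleus, and H19 by probe g alone in EDL and TA. In EDL nuclei 20% of tested probes rose and 26.5% fell. In soleus these shares were 18.7% and 21.7%, and TA gave 19.2% and 33.5%. The medians of the 10 probes, most of them H19, for EDL, soleus and TA were -0.18, 0.03 and 0.24, against -0.05, -0.01 and -0.22 over all tested probes.

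**Figure D2:**
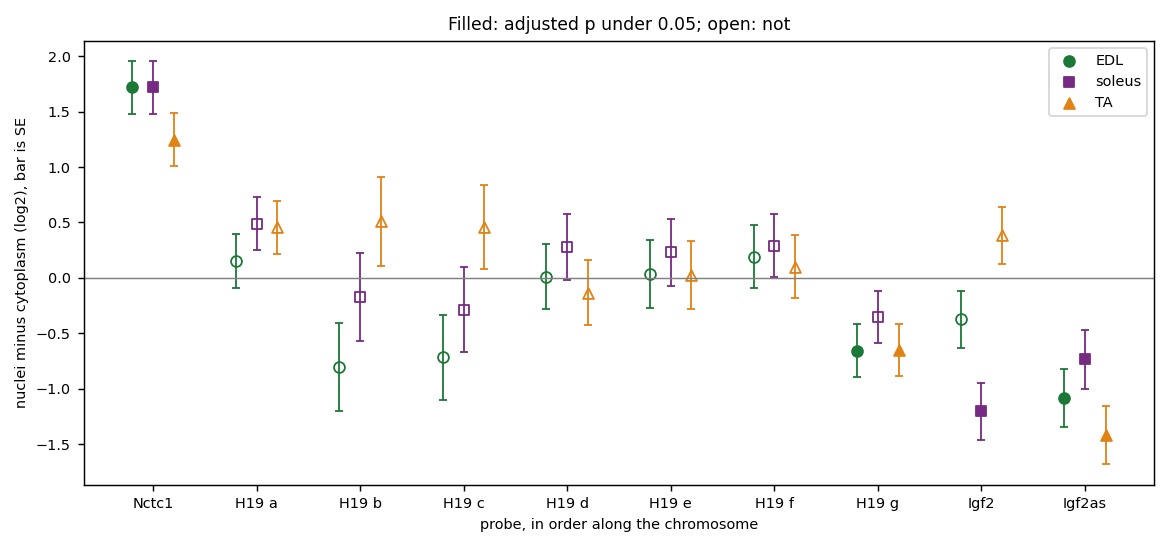
Nuclei minus cytoplasm (log2 difference, vertical axis, bars are SE) of each of the 10 probes in EDL (circles), soleus (squares) and TA (triangles), in chromosome order along the horizontal axis, with filled symbols where the adjusted p was under 0.05. Nctc1 stands above 0 and Igf2as below 0 in the 3 muscles, the H19 probes d, e and f lie near 0, and the Igf2 symbols run from -1.20 in soleus to 0.38 in TA.

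Between soleus and EDL, H19 was the only member called, and it was higher in soleus. In nuclei probe a was at 12.71, 12.78 and 12.73 in EDL and at 14.08, 14.21 and 14.16 in soleus, and probe f at 13.59, 13.55 and 13.76 in EDL and at 14.74, 14.68 and 14.72 in soleus. No soleus array overlapped an EDL array for any of the 7 probes. Of all probes with every value, 22.1% were higher in soleus nuclei without overlap. Probe a was higher in soleus nuclei by 1.41 ± 0.24 (2.66-fold; adjusted p = 0.0052), b by 1.76 ± 0.40 (adjusted p = 0.038), c by 1.67 ± 0.38 (adjusted p = 0.040), d by 1.41 ± 0.29 (adjusted p = 0.022) and e by 1.45 ± 0.31 (adjusted p = 0.024). Probe f differed by 1.08 ± 0.28 (adjusted p = 0.084) and g by 0.53 ± 0.24 (adjusted p = 0.48). Thus 5 of 7 probes were called, all higher in soleus, where 1.56% of all tested probes were called in either direction and 0.978% were higher in soleus. Nctc1, Igf2 and Igf2as differed by -0.28, -0.22 and -0.18 in nuclei, with none called. The 7 probes read 1 RNA from the same arrays and are not replicates of it.

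In the cytoplasm the H19 differences had the same direction but a wider spread. Probe a was at 12.87, 12.83 and 12.05 in EDL and at 13.36, 14.04 and 13.57 in soleus, higher by 1.07 ± 0.24 (2.10-fold; adjusted p = 0.040). Probes b to f differed by 0.98 to 1.26 with adjusted p from 0.056 to 0.21, and g by 0.22. So 1 of 7 was called, beside 1.42% of all tested probes, and 6 of 7 did not overlap, beside 6.51% of those with all values. Within each of the 3 pairs of pools from the same mice, soleus exceeded EDL for every H19 probe in nuclei, with a median difference of 1.43. In the cytoplasm the median was 0.97, and only probe g in replicates 1 and 2 went the other way (-0.22 and -0.08). The probes read 1 RNA, so this rests on 3 pairs, and the same count was not made over all probes. The size of the soleus difference was not called different between the fractions for any H19 probe (differences of 0.10 to 0.63, adjusted p of 0.91 or more). Of all tested probes 0.0286% were called. On simulated arrays only 1% of such differences of 1 (log2) and 62% of those of 2 were recovered. A difference of the size seen here would therefore mostly be missed.

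With the replicate number as a block only probe a stayed called in nuclei (adjusted p of 0.053 to 0.091 for b, c, d and e) and none in the cytoplasm. With 75th percentile scaling none was called in nuclei, where the differences were 0.97 for a, 1.55 for b, 1.45 for c, 1.00 for d and 1.03 for e, and leaving out any 1 of the EDL or soleus nuclear arrays left 1 of 7. The direction held for all 7 probes in both fractions under every alternative run, except that probe g in the cytoplasm was at -0.05 without scaling. Both groups of each comparison shared a slide. Of the marker lists compared beside it, no endothelial, macrophage, satellite or Schwann cell marker was higher in soleus nuclei, 1 of 10 fibroblast markers was (Postn, by 2.21), and 2 Schwann cell markers were lower. In the cytoplasm 1 fibroblast and 1 satellite cell marker were higher in soleus. Their part in the H19 values was not tested. Of 14 myofiber markers 2 were called higher and 2 lower in soleus nuclei, with a median difference of 0.07. Among them, the slow fiber genes Myh7 and Tnni1 were 3.52 and 5.68 higher in soleus nuclei, and Myh4, the fastest myosin, fell by 3.92.

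**Figure D3:**
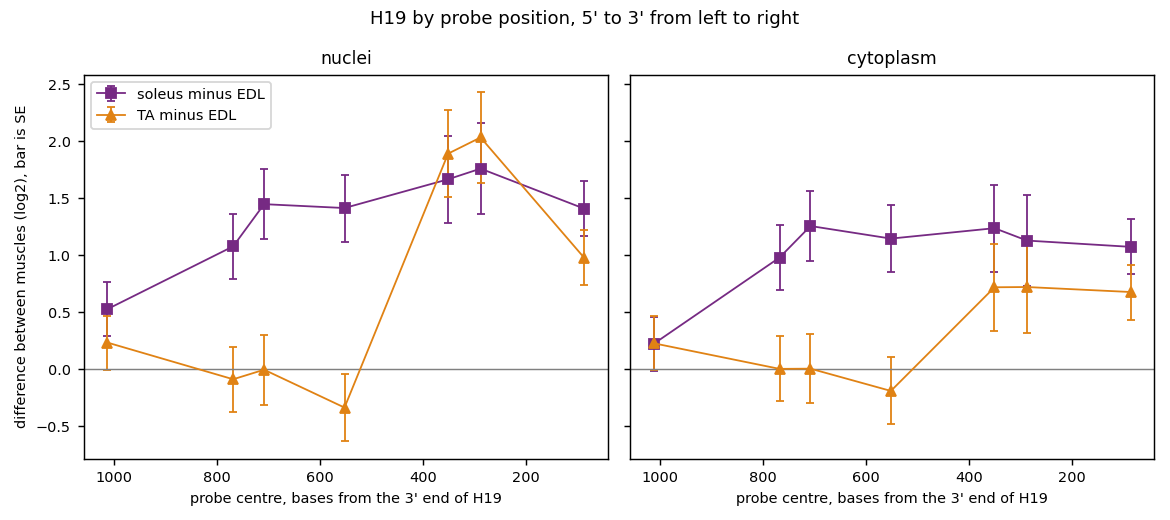
Difference between muscles (log2, vertical axis, bars are SE) of the 7 H19 probes by the distance of the probe centre from the 3′ end of H19 in bases (5′ to 3′ from left to right), in nuclei and in cytoplasm, for soleus minus EDL (squares) and TA minus EDL (triangles). The soleus values in nuclei stay between 0.53 and 1.76 along the RNA, while the TA values in nuclei are near 0 for d, e and f and reach 1.89 and 2.03 for c and b.

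In TA the answer depended on the probe. For d the nuclear levels were 12.19, 12.26 and 12.26 in TA, 12.55, 12.61 and 12.56 in EDL and 13.94, 13.96 and 14.06 in soleus, so that TA lay with EDL and below soleus. For b they were 12.44, 12.91 and 13.32 in TA, 10.97, 10.65 and 10.96 in EDL and 12.57, 12.53 and 12.75 in soleus, so that TA lay with soleus and above EDL. Probe c followed b, at 12.59, 12.73 and 13.22 in TA nuclei and 12.59, 12.59 and 12.69 in soleus nuclei, and e followed d, at 12.45, 12.49 and 12.67 in TA nuclei and 14.07, 13.91 and 13.99 in soleus nuclei. Probes b and d fall on the same side of the gap in the cDNA. Against EDL nuclei, TA nuclei were higher by 2.03 ± 0.40 for b (4.09-fold; adjusted p = 0.0043), by 1.89 ± 0.38 for c (adjusted p = 0.0051) and by 0.98 ± 0.24 for a (adjusted p = 0.014; with the replicate number as a block 0.078). Probes d, e and f differed by -0.34, 0.00 and -0.09, and g by 0.23, none called. Against soleus nuclei, TA nuclei were lower for d (fell by 1.75 ± 0.29; adjusted p = 0.0011), e (by 1.45 ± 0.31; adjusted p = 0.0047) and f (by 1.17 ± 0.28; adjusted p = 0.011), whereas a, b, c and g differed by -0.43, 0.27, 0.23 and -0.29 and were not called. Of all tested probes 17.4% were called between TA and EDL nuclei (7.59% higher in TA) and 19.6% between TA and soleus nuclei (11.9% lower in TA). With 75th percentile scaling only d stayed called against soleus nuclei, while e was at -0.95 (adjusted p = 0.051) and f at -0.70 (adjusted p = 0.13). With the slide as a random block no H19 probe was called between TA nuclei and either muscle, with adjusted p of 0.25 to 0.45 for d, e and f against soleus and 0.59 to 0.73 for a, b and c against EDL.

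Within an array, the mean of b and c less the mean of d and e gives a ratio that scaling by a constant does not move. It was chosen after the values were seen and is given without a test. It was -1.59, -1.82 and -1.54 in EDL nuclei, -1.43, -1.37 and -1.30 in soleus nuclei and 0.19, 0.44 and 0.80 in TA nuclei. For EDL cytoplasm it was -1.04, -0.35 and -1.22, for soleus cytoplasm -0.94, -1.11 and -0.61, and for TA cytoplasm -0.83, 0.76 and -0.10. The 3 TA nuclear arrays and TA cytoplasm replicate 2 were above 0, and these 4 arrays are the ones that shared a slide, so slide and muscle cannot be told apart in this pattern. TA cytoplasm replicate 1, on the slide of the EDL and soleus cytoplasm, lay within their range. TA cytoplasm replicate 3, the only array on its slide, was at -0.10, above every EDL and soleus array of either fraction.

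Cytoplasmic levels of d were 12.89, 12.15 and 12.08 in TA and 13.36, 14.18 and 13.58 in soleus, and those of b were 12.08, 13.07 and 11.99 in TA and 12.37, 13.05 and 12.94 in soleus. The muscles were apart for d and overlapped for b. In the cytoplasm TA was below soleus for d (fell by 1.34 ± 0.29; adjusted p = 0.0048), e (by 1.25 ± 0.31; adjusted p = 0.0083) and f (by 0.98 ± 0.28; adjusted p = 0.020), the last no longer called with the replicate number as a block (adjusted p = 0.066). Igf2 was lower in TA than in soleus cytoplasm by 1.19 ± 0.26 (2.29-fold; adjusted p = 0.0044; with the block 0.071). These are 4 of 10 probes, all lower in TA, beside 28.6% of all tested probes called and 12.8% lower. Of the marker lists, 7 of 10 endothelial, 7 of 10 fibroblast and 2 of 7 Schwann cell markers were also lower in TA cytoplasm, none higher. So were 8 of 14 myofiber markers and 2 of 7 tested satellite cell markers, with 1 higher in each of these lists. Of 8 macrophage markers 1 was higher and none lower. Their part in the H19 and Igf2 values was not tested. With TA cytoplasm replicate 1 alone, an alternative chosen after seeing the data because that array was on the slide of the soleus cytoplasm, the differences became -0.82 for d, -0.78 for e, -0.56 for f and -0.96 for Igf2, given as values of 1 array without a test. Against EDL cytoplasm no member was called, beside 12.4% of all tested probes. At an unadjusted p under 0.05 in limma 2 of 10 passed, and the share of all probes at that looser threshold was not counted.

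Other genes were fitted under quantile scaling alone. Their probes within 100 kb of the outermost members lay on both sides of the locus. On the Nctc1 side, Gm14492, a predicted gene, was higher in nuclei by 1.14 ± 0.13 over the 3 muscles, Mrpl23, a mitochondrial ribosome subunit, by 0.41 ± 0.10 (adjusted p = 0.0023) and both probes of Tnnt3, the fast troponin T, by 0.35 and 0.36. A transcript model whose probe overlaps that of Mrpl23 was higher by 0.39. Gm14492 was also the 1 neighbour called between soleus and EDL. It fell by 1.02 in soleus nuclei (adjusted p = 0.040) and by 1.31 in soleus cytoplasm (adjusted p = 0.0094). Of all tested probes 1.56% and 1.42% were called in these comparisons. Lsp1, a leukocyte actin-binding protein, differed by 0.73 ± 0.41 and was not called (adjusted p = 0.13). On the Igf2as side, Ins2, an insulin gene, fell by 0.78 ± 0.12 in nuclei, and Th, which makes tyrosine hydroxylase and lies 317 kb from the 3′ end of H19, fell by 1.37 ± 0.11. Further out on that side, Trpm5, Tspan32 and Tnfrsf22 fell by 1.02, 0.66 and 1.06. Syt8, on the Nctc1 side at 136 kb from H19, fell by 0.85. Of 22 tested genes of the wider neighbourhood 6 rose and 8 fell, with a median difference of 0.10, beside 31.2% and 38.6% of all tested probes.

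**Figure D4:**
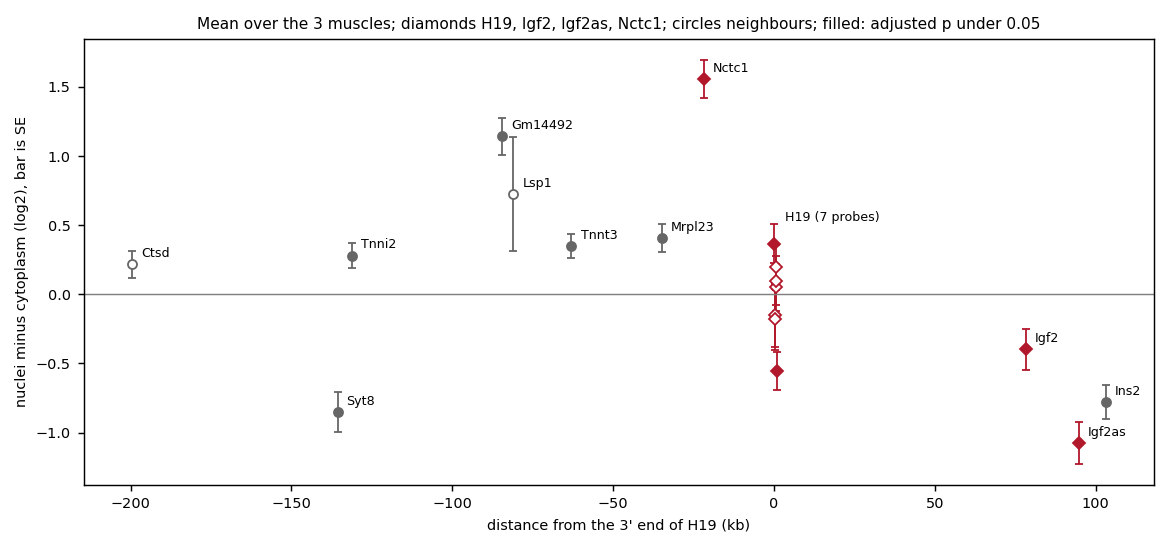
Nuclei minus cytoplasm over the 3 muscles (log2 difference, vertical axis, bars are SE) against distance from the 3′ end of H19 in kb, for the 10 member probes (diamonds) and neighbouring genes (circles), filled where the adjusted p was under 0.05. Nctc1 stands highest at 1.56, Gm14492 follows at 1.14, and Igf2, Ins2 and Igf2as at the right end lie below 0.

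Among genes of the insulin-like growth factor system, 11 of 18 tested rose in nuclei over the 3 muscles and 5 fell, beside the same 31.2% and 38.6%. The receptors rose: Igf2r, the imprinted receptor that clears Igf2, by 1.12 ± 0.14 and Igf1r, the signalling receptor, which was not well above background on every array, by 1.37 ± 0.20. Igf1, the postnatal growth factor, fell by 0.79 ± 0.12, called in EDL (fell by 1.09) and TA (fell by 1.00) but not in soleus, where it differed by -0.27 and Igf2 fell. Pappa, the protease that frees growth factor from binding proteins, fell by 0.97 ± 0.13, and Igfbp7, a binding protein, rose by 1.28 ± 0.15. Igf2bp2, which binds Igf2 mRNA, rose by 0.39 ± 0.12 (adjusted p = 0.0075). Igfbp3 was not well above background on any cytoplasmic array and was at least 2.80-fold higher in EDL nuclei, at least 1.54-fold in soleus and at least 1.64-fold in TA. No gene of the system was called between soleus and EDL, of 21 tested in nuclei and 19 in the cytoplasm. Only 1.56% and 1.42% of all tested probes were called there, so few calls would be looked for among so few genes.

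Of 18 tested genes that keep or read the imprint or partner with H19, 6 rose in nuclei over the 3 muscles and 1 fell, beside 31.2% and 38.6% of all tested probes. Ctcf, the insulator protein of this locus, which was well above background on 2 EDL and 1 TA cytoplasmic array of 3 each, rose by 1.48 ± 0.14, Dnmt3a and Dnmt3b, which lay down DNA methylation, by 1.49 ± 0.13 and 0.86 ± 0.15, Dnmt1, which copies it, by 0.73 ± 0.19, and the cohesin subunits Smc3 and Smc1a by 1.02 ± 0.21 and 0.94 ± 0.32. Of 18 tested imprinted growth genes outside the locus, 7 rose and 4 fell. Meg3 rose by 2.23 and Dcn, which makes decorin, by 0.88, Mest rose by 1.05, and Ndn and Magel2, both of the Prader-Willi domain, fell by 1.43 and 1.38. Over the 3 muscles 6 of 10 fibroblast, 10 of 10 endothelial and 6 of 7 Schwann cell markers were higher in nuclei too. So were 10 of 14 myofiber markers and 2 of 7 tested satellite cell markers, with 1 lower in each of these lists. Of 8 macrophage markers none was higher and 5 were lower. The part of these cell types in the gene lists above was not tested.

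The probes that followed each member most closely over the 18 arrays, out of 35518 with a value on every array, were found by Pearson correlation. For the brightest H19 probe these included Gm8850 (r = 0.95), Lynx1 (r = 0.92) and Atp2a2, the slow calcium pump (r = 0.91). For Igf2 they were led by C1qc, a complement subunit (r = 0.89). For Igf2as they reached r = 0.99 and included Lrp5, and for Nctc1 they included 2610020P09Rik (r = 0.98). The arrays fall into fractions and slides, which these correlations share, so they describe the pattern only.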

How the data were processed

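RNA of 18 fiber fractions was hybridised to 1-colour Agilent mouse arrays. The authors' scanner files, made with Agilent Feature Extraction 10.7.3.1, hold background-subtracted and detrended spot intensity with no scaling between arrays, and deposited flags per spot. The deposited value table holds linear intensity of 3668 probe names, 8 of them members, and served as an alternative.

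Processed intensity was taken as log2, spots not above background or flagged as outliers were set missing, 3671 control spots were removed, arrays were quantile scaled and spots of 1 probe averaged. limma 3.58.1 (R 4.3.3) fitted 6 group means, and probes with 2 of 3 values in each group compared were tested. Benjamini-Hochberg adjustment ran over all tested probes, at 0.05. The number of arrays limits the precision. On simulated arrays of 35528 probes, 29.5% to 32% of changes of 1 and 85% to 87% of changes of 2 (log2) between fractions within a muscle were recovered, with 9.09% to 18.2% false calls, above the nominal rate. Pairing came from the labels, EDL and soleus pools sharing mice by number and TA numbers forming blocks of their own although they mark shared mice only in replicates 1 and 2; deviations of same-numbered arrays correlated between -0.11 and 0.13. P-values measure the spread between these pools, held in common for each probe over all 18 arrays. Cytoplasmic arrays varied more than nuclear ones, so this common spread tends to be too small for cytoplasmic comparisons and too large for nuclear ones. With arrays weighted by fraction no member was called between soleus and EDL cytoplasm. Where an array was left out or 1 array stood for a group, other groups supplied its spread.

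Members and gene lists were chosen with earlier results of these data known. Each listed gene was read by its brightest probe; named were up to 6 a list with the smallest adjusted p over the 3 muscles, plus a fixed set, and the 5 most correlated probes. Sequences come from the scanner files, the cDNA and primers from the study's supplement. Alternatives covered scaling, background, filters, weights, blocks and single arrays.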

Additional observations from a re-analysis of the deposited data

Results flagged for a closer look

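The nuclei minus cytoplasm difference of Igf2 was larger in TA than in soleus by 1.59 ± 0.37 (log2, adjusted p = 0.031), the only difference of this kind among the 10 probes that passed the test. It was 0.68 without scaling and was then not called. The soleus arrays alone showed lower nuclear levels without overlap. Groups of 3 arrays were too small for a test of single outlying arrays.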

How the results depend on the processing

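Of the 10 probes, 3 were called between fractions in EDL, in soleus and in TA, 5 over the 3 muscles, 5 between soleus and EDL nuclei, 1 between soleus and EDL cytoplasm, 3 between TA and EDL nuclei, 3 and 4 between TA and soleus in nuclei and cytoplasm, and 1 (Igf2) for the TA against soleus difference between fractions. When the 3 nuclear arrays of each muscle counted as 1 sample, these became 1, 0 and 0, 2 over the 3 muscles, and 0 in every other comparison. With the slide as a random block they were 1 in EDL, 1 in soleus, 2 over the 3 muscles, 3 for soleus against EDL cytoplasm, and 0 for TA against either muscle in nuclei and for the Igf2 difference. Of all tested probes, 1222 of 45470 were then called for soleus against EDL cytoplasm. With the replicate number as a block, which marks shared mice in EDL and soleus but not throughout TA, soleus against EDL gave 1 in nuclei and 0 in cytoplasm, TA against soleus cytoplasm 2, and the Igf2 difference 0 (adjusted p = 0.062). With 75th percentile scaling soleus against EDL nuclei gave 0 and TA against soleus nuclei 1. Without scaling EDL gave 1, soleus against EDL cytoplasm 0, TA against soleus nuclei 5 and the TA against soleus difference 3, none of them Igf2 (0.68, adjusted p = 0.14). Of all tested probes, 21274 of 43529 were then called for TA against soleus nuclei and 19704 of 41366 for that difference. The deposited values held 8 members, without Igf2 and H19 probe g. They gave 1 in soleus, 2 over the 3 muscles and 0 for soleus against EDL cytoplasm. Part of the falls in soleus and over the 3 muscles reflects the absent probes, and the Igf2 difference could not be tested there. Array weights gave 0, 5, 6 and 2 for soleus against EDL cytoplasm, TA against EDL nuclei, and TA against soleus nuclei and cytoplasm. In the same order, 136 of 45470, 22906 of 43303, 23155 of 43529 and 3971 of 45660 tested probes were called. For soleus against EDL cytoplasm normexp gave 3 and requiring signal well above background 2, the latter also giving 1 for TA against EDL cytoplasm. Beside these, 869 of 45470, 573 of 33377 and 5787 of 34911 tested probes were called. For TA cytoplasm replicate 1 alone, chosen after seeing the data, only the differences given above are reported, without a count of calls. The causes were not tested.

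Leaving out 1 array gave 2 to 5 in EDL, 2 to 4 in soleus, 2 to 3 in TA, 4 to 5 over the 3 muscles, 1 to 6 and 0 to 4 for soleus against EDL in nuclei and cytoplasm, 2 to 3 and 0 to 0 for TA against EDL, 3 to 3 and 3 to 4 for TA against soleus, and 0 to 1 for the Igf2 difference. Without scaling 4 values that were called in either setting reversed: Igf2as in soleus to 0.50, H19 probe g in soleus to 0.84 and over the 3 muscles to 0.11, and Igf2 over the 3 muscles to 0.29. Values called in neither also changed sign, among them Igf2 in EDL (0.26), H19 d in TA (0.28), and b and c in soleus (0.72 and 0.62) and over the 3 muscles (0.49 and 0.47). The median of all probes over the 3 muscles was then 0.42, against -0.08 as reported and -0.30 with 75th percentile scaling, and 70.1% of called probes were higher in nuclei, against 44.8% and 35.9%.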
